A study of Mus musculus with 6 samples.

Results

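The genes described here encode 10 subunits of the BAF chromatin remodelling complexes of mouse cells: the ATPases Smarca2 and Smarca4, the scaffold subunits Smarcc1 and Smarcc2, the Smarcd subunits Smarcd1 and Smarcd3, the actin-related subunits Actl6a and Actl6b, and the double PHD finger subunits Dpf1 and Dpf3. They were chosen by symbol, through the probe sets that the platform annotation ties to exactly 1 gene, and all 10 of 10 were found among the 18193 genes measured. They are covered by 20 probe sets: 3 members (Smarcc2, Smarcd3 and Actl6b) have 1 probe set and 7 have several.

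BAF complexes use the energy of ATP to move or evict nucleosomes, and each is assembled from a core and from positions that can be filled by alternative, related proteins. The ATPase position is taken by either Smarca4 (BRG1) or Smarca2 (BRM). In mouse embryonic stem cells the complex is known for Smarca4, Smarcc1, Smarcd1 and Actl6a, whereas postmitotic neurons are known for Actl6b, Dpf1, Dpf3 and Ss18l1 in place of Actl6a, Phf10, Dpf2 and Ss18. The question put to the arrays was whether subunits of the stem cell form gave way to those of the neural forms along a neural differentiation culture.

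RNA came from OLV2-1, a mouse embryonic stem cell line in which the fluorescent protein Venus was knocked into the Oct4 (Pou5f1) locus, a pluripotency gene, and every group was sorted for Venus and so selected for Oct4 reporter expression. The 3 groups, with 2 Affymetrix arrays each, were undifferentiated stem cells (ESC), EpiSC-like cells, which resemble epiblast stem cells and were taken at day 3 of SFEBq (serum-free floating culture of aggregates, used to make neural cells), and cells still positive for Oct4-Venus at day 7 of that culture (day 7). The sorting protocol also gated ESC as positive and EpiSC-like cells as negative for the surface protein Pecam1, and names no such gate at day 7. Day 7 aggregates were dissociated with EDTA alone and the others with trypsin, so that stage, gate and handling cannot be told apart. All samples are of this 1 line, and no label states that a group's arrays are separate cultures. The p-values thus measure only how far these samples spread, which may be technical.

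Signals are linear intensity units, and replicate arrays of a group correlated across genes with r between 0.9755 and 0.978 in the 3 groups. Arrays numbered 1 and 2 differed in their controls: the median hybridization control read 2885 to 3695 on the 3 arrays numbered 1 and 5086 to 6479 on those numbered 2. The median polyA control read 236 to 268 on the arrays numbered 1, and on those numbered 2 it was 40.7 for ESC and 39.0 for EpiSC-like cells but 348 at day 7, so that day 7 replicate 2 did not go with the others of its number. Differences were also taken within each number. The labelled cell states were compared with defining genes. Of 12 naive pluripotency genes 4 fell in EpiSC-like cells against ESC (Klf4, Klf5, Esrrb and Tfcp2l1), and 4 of 7 epiblast genes rose (Fgf5, Pou3f1, Lef1 and Sall2). In that comparison 0.583% of all genes were called lower and 1.31% higher. At day 7 against ESC, Klf5 fell and Fgf5 rose, where 0.286% of all genes were called lower and 0.753% higher. Between day 7 and EpiSC-like cells 0 genes of either list were called. There 11 of the 12 naive genes had a difference above 0, with a median of 1.04. Of the 7 epiblast genes 1 did, with a median of -1.28, beside -0.02 for all genes.

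The ATPase Smarca2 was the only member called, narrowly and not in every setting. It rose in EpiSC-like cells and at day 7, each against ESC, while Smarca4 did not pass in any comparison. Smarca2 was read from the probe set with the higher mean over all arrays (1430526_a_at). In ESC it read below the other Smarca2 probe set, so the signals of the later groups decided this choice. It read 17.4 and 2.23 in ESC, 135 and 82.7 in EpiSC-like cells, and 127 and 201 at day 7. All 4 arrays of differentiating cells lay above both ESC arrays, and the EpiSC-like and day 7 arrays overlapped. The signals stayed modest: on every array this probe set lay between the 3.33 and the 65.0 percentile of all probe sets. In bulk samples such as these, fewer cells of a type and less RNA per cell cannot be told apart. Differences are on the scale of log2(signal + 16), where the added 16 shrinks those between dim signals. The Smarca2 difference was 2.31 ± 0.40 (SE) for EpiSC-like cells against ESC and 2.84 ± 0.40 for day 7 against ESC. The limma adjusted p-values over all genes were 0.0489 and 0.0402. Day 7 against EpiSC-like cells gave 0.53 ± 0.40 (limma adjusted p = 0.613).

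Within the arrays numbered 1 the Smarca2 differences were 2.17 for EpiSC-like cells against ESC and 2.10 for day 7 against ESC, and within those numbered 2 they were 2.44 and 3.57. With the number as a block the limma adjusted p-values were 0.0786 and 0.0744, above the threshold of 0.05. Each group holds 1 array of each number, so this block could not change the sizes of 2.31 and 2.84. Leaving out any 1 of the 6 arrays, controls included, also ended both calls, with differences of 1.87 to 2.74 for EpiSC-like cells (adjusted p from 0.0694 to 0.221) and 2.40 to 3.27 for day 7 (adjusted p from 0.0717 to 0.250). With a pseudocount of 1 the Smarca2 differences were 3.79 and 4.38 (limma adjusted p = 0.175 and 0.156), and with 64 they were 1.22 and 1.62 (0.0460 and 0.0256). With the mean of both Smarca2 probe sets they were 1.28 and 1.84 (limma adjusted p = 0.145 and 0.0660). The other Smarca2 probe set (1452333_at) differed less. It read 48.8 and 29.3 in ESC, 57.6 and 41.4 in EpiSC-like cells, and 63.7 and 101 at day 7. Its EpiSC-like arrays overlapped those of ESC, and both day 7 arrays lay above all others. Its differences were 0.26 for EpiSC-like cells against ESC and 0.83 for day 7 against ESC, and in a fit of every probe set on its own neither passed (limma adjusted p = 0.846 and 0.306).

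Smarca4, the ATPase of the stem cell complex, was bright in every group. It read 4655 and 5209 in ESC, 4765 and 4943 in EpiSC-like cells, and 4489 and 3758 at day 7. Both day 7 arrays lay below the others, by little: the log2 difference was -0.26 ± 0.23 for day 7 against ESC and -0.02 ± 0.23 for EpiSC-like cells against ESC (limma adjusted p = 0.603 and 0.983). Its other probe set (1426805_at) followed the array number rather than the stage, with 1062, 1221 and 1397 on the arrays numbered 1 and 931, 814 and 831 on those numbered 2, in the order ESC, EpiSC-like cells, day 7.

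The promoters of the 2 ATPase genes are shown because the called member, Smarca2, belongs to this pair. They are taken from RefSeq (build GRCm38.p6), run from 250 bases before to 50 bases after the gene's start, and are written 5′ to 3′ on the gene's strand, with every CG dinucleotide in capitals. Smarca2 lies at chr19:26604910-26605209 and Smarca4 at chr9:21615919-21616218, both on the plus strand.
Smarca2: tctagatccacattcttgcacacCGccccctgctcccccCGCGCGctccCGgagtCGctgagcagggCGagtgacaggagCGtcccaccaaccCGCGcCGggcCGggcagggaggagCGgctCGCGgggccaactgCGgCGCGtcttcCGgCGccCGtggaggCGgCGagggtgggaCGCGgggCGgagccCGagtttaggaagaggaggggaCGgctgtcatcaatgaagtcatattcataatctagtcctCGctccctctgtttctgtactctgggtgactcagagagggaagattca
Smarca4: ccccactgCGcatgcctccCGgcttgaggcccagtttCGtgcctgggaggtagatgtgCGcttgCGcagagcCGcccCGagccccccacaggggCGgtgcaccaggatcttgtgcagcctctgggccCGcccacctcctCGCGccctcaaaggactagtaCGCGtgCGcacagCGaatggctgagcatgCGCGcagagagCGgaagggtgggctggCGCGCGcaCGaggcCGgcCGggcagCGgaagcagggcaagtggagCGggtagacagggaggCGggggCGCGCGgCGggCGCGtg
The Smarca2 window holds 29 CG dinucleotides and the Smarca4 window 33, against a median of 7 over the 32851 promoters of the table. At least as many as in Smarca2 stand in 12.9% of those promoters, and at least as many as in Smarca4 in 8.56%. Neither window holds the letters TATAAA on either strand, which 13.6% of all promoters hold. The letters GGGCGG, searched on both strands and overlapping CG, occur 2 times in Smarca2 and 3 times in Smarca4, and at least once in 35.7% of all promoters. Both windows thus hold more CG dinucleotides than the median promoter.

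**Figure D1:**
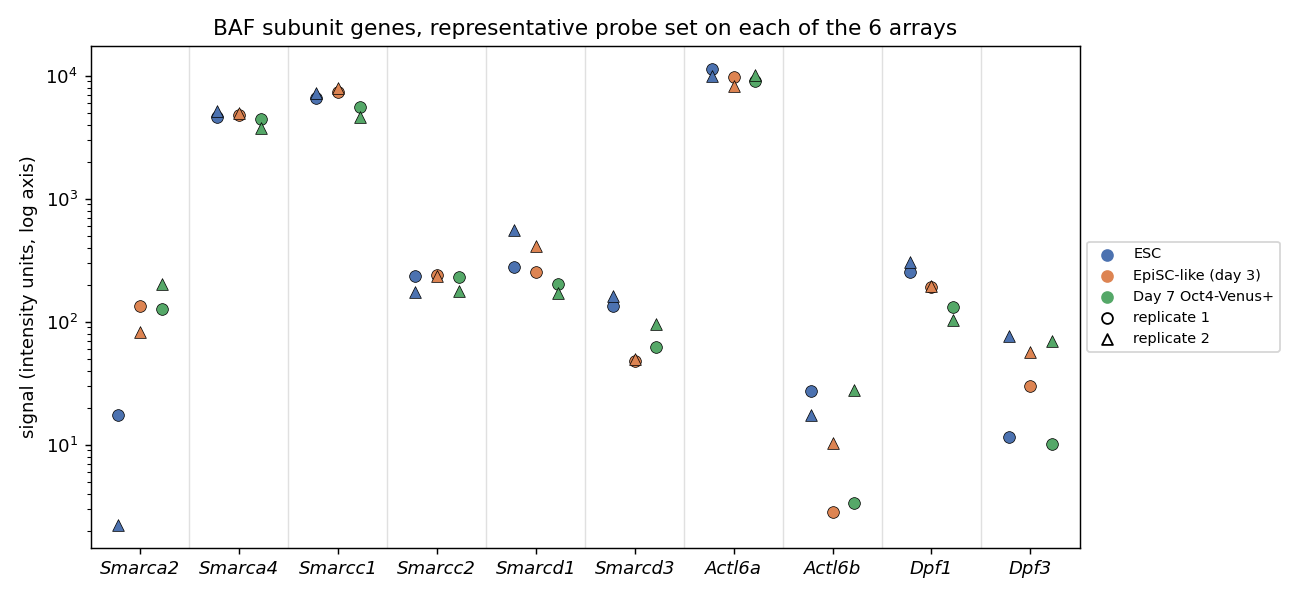
Signal (intensity units, log axis) of the representative probe set of each of the 10 genes on the 6 arrays, by group (colour) and replicate number (shape). Smarca2 reads 2.23 and 17.4 in ESC and 82.7 to 201 in the other groups, whereas Smarca4, Smarcc1 and Actl6a stay within a narrow band and Actl6b reads 2.81 to 27.7. Heights of different genes are different probes and are not to be compared.

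The scaffold subunits Smarcc1 and Smarcc2, which hold the complex together, showed no call in any comparison. Smarcc1, the scaffold of the stem cell form, read 6630 and 7214 in ESC, 7402 and 7956 in EpiSC-like cells, and 5533 and 4595 at day 7. The 3 groups did not overlap, with EpiSC-like cells highest and day 7 lowest. The log2 differences were 0.15 ± 0.23 in EpiSC-like cells and -0.45 ± 0.23 at day 7, both against ESC, and -0.60 ± 0.23 between day 7 and EpiSC-like cells (limma adjusted p = 0.831, 0.357 and 0.317). Its 4 probe sets disagreed on the direction at day 7: 2 were above 0 and 2 below 0 against ESC. One of them, 1423417_at, read 2901 on day 7 replicate 1 and 491 on day 7 replicate 2, with 1107 and 447 in EpiSC-like cells and 1042 and 464 in ESC, so that this array stood alone. The other probe sets read 2214 to 4610 (1455246_at) and 35.8 to 140.0 (1459824_at) over the 6 arrays.

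Smarcc2, known to join the complex as neural cells form, read 233 and 174 in ESC, 239.6 and 236 in EpiSC-like cells, and 233 and 179 at day 7. Both EpiSC-like arrays lay above all others, by a few units on the arrays numbered 1. The difference was 0.22 ± 0.26 for EpiSC-like cells against ESC and 0.02 ± 0.26 for day 7 against ESC (limma adjusted p = 0.761 and 0.986). The sign of the day 7 value turned when arrays were centred on their median (-0.21) or quantile normalized (-0.22).

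The Smarcd subunits link the complex to transcription factors, and Smarcd3 is the form known from heart and neurons. Smarcd3 was the member nearest to a call among those lower than in ESC. It read 135 and 163 in ESC, 48.1 and 49.7 in EpiSC-like cells, and 62.5 and 96.2 at day 7. The 3 groups did not overlap: ESC were highest, EpiSC-like cells lowest and day 7 between them. The log2 difference was -1.34 ± 0.27 for EpiSC-like cells against ESC and -0.81 ± 0.27 for day 7 against ESC, and neither passed (limma adjusted p = 0.0645 and 0.185). It passed in EpiSC-like cells with a pseudocount of 64 (-0.91, limma adjusted p = 0.0463) and when genes under the 25th percentile of mean signal were left out (-1.34, limma adjusted p = 0.0338).

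Smarcd1, the form of the stem cell complex, read 278 and 556 in ESC, 256 and 415 in EpiSC-like cells, and 204 and 171 at day 7. Both day 7 arrays were the lowest, but the replicates of ESC lay far apart. The difference was -1.02 ± 0.39 for day 7 against ESC and -0.26 ± 0.39 for EpiSC-like cells against ESC (limma adjusted p = 0.245 and 0.825). Within the arrays numbered 1 the day 7 difference was -0.42, and within those numbered 2 it was -1.61. Its other probe set (1420240_at) was dim, at 6.07 to 38.6 over the 6 arrays.

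**Figure D2:**
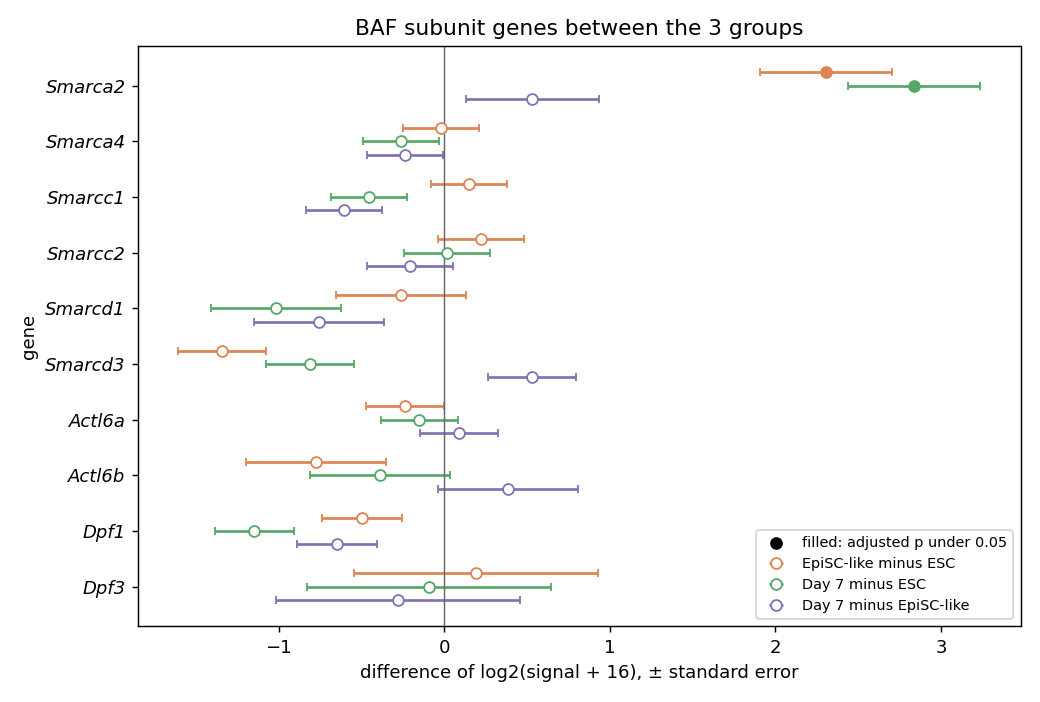
Differences of log2(signal + 16) between groups for the 10 genes, with the standard error of the limma fit. Filled points have an adjusted p under 0.05 over all 18193 genes. Smarca2 against ESC at 2.31 in EpiSC-like cells and 2.84 at day 7 are the filled points.

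Actl6a and Actl6b are actin-related proteins that occupy the same position, Actl6a in dividing progenitors and Actl6b in postmitotic neurons. Actl6a stayed bright in every group. Its brightest probe set (1456730_x_at, of a type that can also bind related transcripts) read 11402.5 and 9926 in ESC, 9852 and 8254 in EpiSC-like cells, and 9132 and 10067 at day 7. EpiSC-like cells lay below ESC and the day 7 arrays overlapped both. The differences were -0.24 ± 0.23 for EpiSC-like cells against ESC and -0.15 ± 0.23 for day 7 against ESC (limma adjusted p = 0.709 and 0.783).

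The other probe sets of Actl6a did not all follow. Probe set 1416569_at read 10829 and 10912 in ESC, 9027 and 8742 in EpiSC-like cells, and 9073 and 8588 at day 7, so that both later groups lay below ESC. Probe set 1429883_at ran the other way, with 947 and 879.6 in ESC, 1090.2 and 1193 in EpiSC-like cells, and 1499 and 1645 at day 7, in 3 groups that did not overlap. In the fit of every probe set on its own these gave -0.30 and 0.77 for day 7 against ESC (limma adjusted p = 0.608 and 0.222).

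Actl6b, the neuronal form, was dim on all 6 arrays. It read 27.3 and 17.5 in ESC, 2.81 and 10.3 in EpiSC-like cells, and 3.35 and 27.7 at day 7, between the 6.08 and the 33.1 percentile of all probe sets. The 2 day 7 arrays lay at opposite ends, replicate 2 just above the higher ESC array and replicate 1 between the EpiSC-like arrays. The differences were -0.78 ± 0.42 for EpiSC-like cells against ESC and -0.39 ± 0.42 for day 7 against ESC (limma adjusted p = 0.447 and 0.681), and the day 7 value was 0.20 without day 7 replicate 1. The EpiSC-like arrays lay below both ESC arrays, and no comparison passed.

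The promoters of this pair, in the same form as above, are shown because it is the textbook exchange of the neural complex. Actl6b lies at chr5:137553296-137553595 and Actl6a at chr3:32708296-32708595, both on the plus strand.
Actl6b: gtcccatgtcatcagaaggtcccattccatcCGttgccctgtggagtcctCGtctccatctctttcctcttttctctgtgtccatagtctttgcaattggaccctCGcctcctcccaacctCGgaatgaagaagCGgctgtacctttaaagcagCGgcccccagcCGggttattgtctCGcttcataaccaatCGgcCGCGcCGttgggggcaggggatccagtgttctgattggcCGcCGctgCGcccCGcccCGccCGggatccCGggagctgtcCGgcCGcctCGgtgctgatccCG
Actl6a: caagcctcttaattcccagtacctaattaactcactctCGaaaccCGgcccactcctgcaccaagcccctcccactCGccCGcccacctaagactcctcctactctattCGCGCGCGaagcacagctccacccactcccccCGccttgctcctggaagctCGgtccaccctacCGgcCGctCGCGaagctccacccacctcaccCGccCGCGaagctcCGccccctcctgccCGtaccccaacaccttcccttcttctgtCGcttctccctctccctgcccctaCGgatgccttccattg
The Actl6b window holds 23 CG dinucleotides and the Actl6a window 21, numbers reached by 21.5% and 24.8% of all promoters in the table. Neither holds TATAAA, and GGGCGG occurs 2 times in Actl6b and 3 times in Actl6a.

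**Figure D3:**
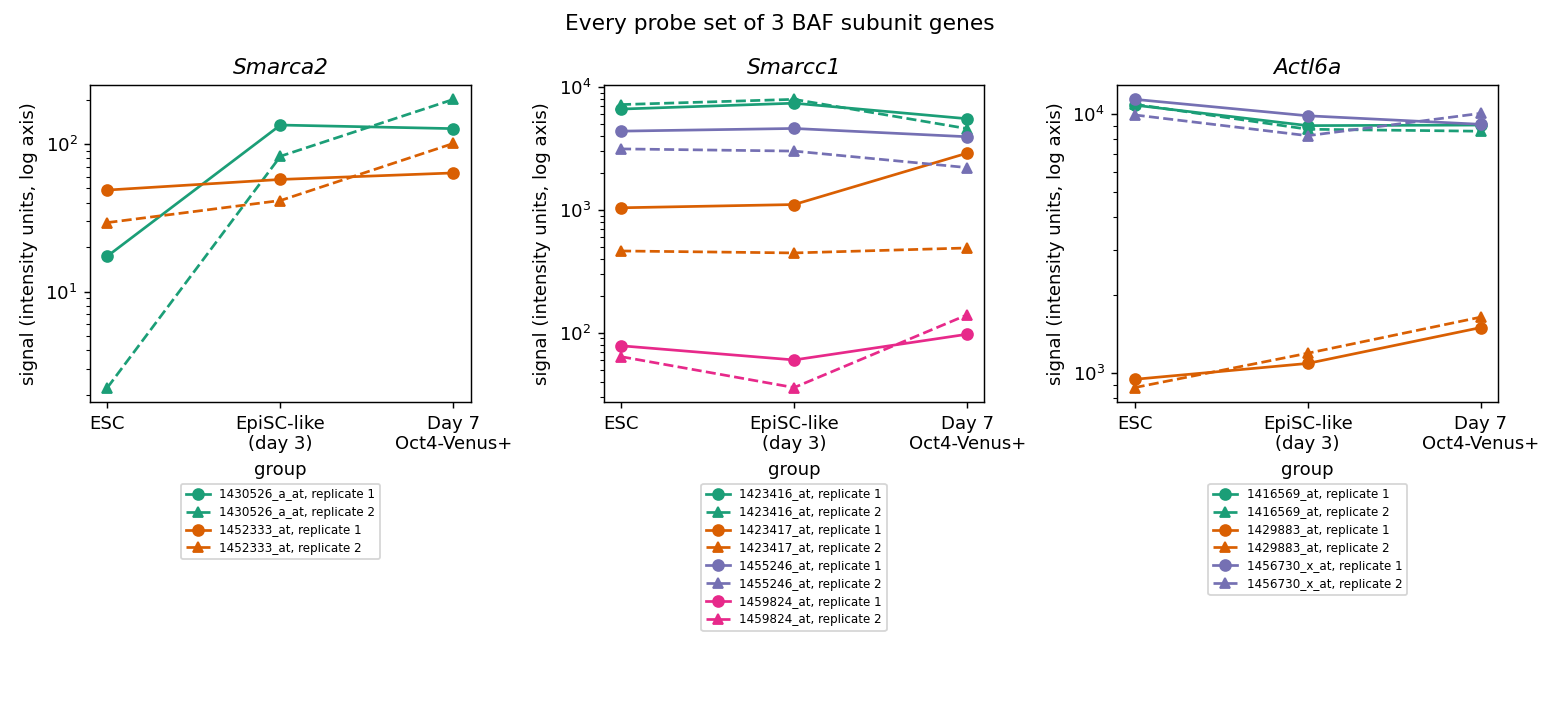
Signal (intensity units, log axis) of every probe set of Smarca2, Smarcc1 and Actl6a by group, with solid lines for replicate 1 and dashed lines for replicate 2; lines join arrays of the same number. The probe sets of Smarca2 differ unequally between the groups, 1423417_at of Smarcc1 stands apart on day 7 replicate 1 at 2901, and 1429883_at of Actl6a runs against the 2 brighter probe sets.

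Dpf1 and Dpf3 read modified histone tails through paired PHD fingers and are known from the neuronal complex. Dpf1 was lower, not higher, in the later groups, without passing. It read 251 and 307 in ESC, 190.0 and 195 in EpiSC-like cells, and 131 and 104 at day 7. The 3 groups did not overlap and followed the order of the culture. The difference from ESC was -1.15 ± 0.24 at day 7 and -0.50 ± 0.24 in EpiSC-like cells, and day 7 differed from EpiSC-like cells by -0.65 ± 0.24 (limma adjusted p = 0.0853, 0.384 and 0.309). Day 7 against ESC passed with a pseudocount of 64 (-0.92, limma adjusted p = 0.0411), without genes under the 25th percentile (-1.15, limma adjusted p = 0.0459) and without genes under the median of mean signal (-1.15, limma adjusted p = 0.0179). The dimmer Dpf1 probe set (1420529_at) read 76.7 and 86.7 in ESC, 88.9 and 75.3 in EpiSC-like cells, and 70.5 and 40.7 at day 7, so that its EpiSC-like and ESC arrays overlapped.

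Dpf3 followed the array number only on its brighter probe set. Its brighter probe set (1441659_at) read 11.5, 29.8 and 10.2 on the arrays numbered 1 and 77.0, 56.6 and 70.0 on those numbered 2, in the order ESC, EpiSC-like cells, day 7. The groups overlapped in every comparison. The other probe set (1450162_at) read 41.1 and 1.88 in ESC, 9.80 and 25.1 in EpiSC-like cells, and 29.9 and 30.0 at day 7. The differences were 0.19 ± 0.74 for EpiSC-like cells against ESC and -0.09 ± 0.74 for day 7 against ESC (limma adjusted p = 0.943 and 0.967).

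Across the set, 1 of 10 members was called in EpiSC-like cells against ESC (Smarca2, higher), where 1.90% of all genes were called in either direction, 1.31% higher and 0.583% lower. Likewise 1 of 10 was called at day 7 against ESC (Smarca2, higher), against 1.04% of all genes in either direction, 0.753% higher and 0.286% lower. Both comparisons share the ESC arrays. At day 7 against EpiSC-like cells limma called 0 of 10, against 0.0385% of all genes, 0.0220% higher and 0.0165% lower. There, 2 members had an unadjusted p under 0.05 (Smarcc1 and Dpf1, both lower), as had 14.1% of all genes. The numbers at an unadjusted p under 0.05 were 2 for EpiSC-like cells against ESC (Smarca2 and Smarcd3), where 2904 of all 18193 genes had one, and 4 for day 7 against ESC (Smarca2, Smarcd1, Smarcd3 and Dpf1), where 18.3% had one.

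Group ranges that did not overlap were frequent among all genes. For EpiSC-like cells against ESC 3 members lay wholly above and 4 wholly below, where 44.9% of all genes did one or the other and 19.9% lay below. For day 7 against ESC 1 lay above and 5 below (50.1% of all genes, 26.6% above and 23.5% below), and for day 7 against EpiSC-like cells 1 lay above and 5 below (45.8%, 21.3% above and 24.5% below). The median difference of the members was -0.13, -0.33 and -0.22 in the 3 comparisons in that order, beside 0.03, 0.02 and -0.02 for all genes. With each array centred on its own median, the all-gene median for day 7 against ESC was -0.21, and the calls split into 83 higher and 79 lower in place of 137 and 52. For EpiSC-like cells against ESC that median was -0.10, with 183 higher and 129 lower in place of 239 and 106, and Smarca2 then stood at 2.18 (adjusted p = 0.0517) in limma. For day 7 against EpiSC-like cells that median was -0.13, with 5 and 5 in place of 4 and 3.

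Levels of different probe sets cannot be compared, but the change of a pair's log2 ratio between arrays shows whether its members changed unequally. The ratio of Smarca2 to Smarca4 lay above its ESC values on all 4 arrays of the later groups, on average by 2.33 in EpiSC-like cells and 3.10 at day 7 (2.14 and 2.15 within the arrays numbered 1, 2.51 and 4.04 within those numbered 2). The ratio of Smarcc2 to Smarcc1 was 0.47 higher at day 7 than in ESC and 0.40 higher than in EpiSC-like cells, without overlap, but with the mean of all probe sets these values were -0.14 and -0.43. The ratio of Smarcd3 to Smarcd1 was 1.08 lower in EpiSC-like cells than in ESC on the log2 scale and overlapped ESC at day 7. At day 7 it was 1.29 higher than in EpiSC-like cells, without overlap (0.60 within the arrays numbered 1 and 1.97 within those numbered 2).

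The pairs of the neuronal complex did not lie above ESC in this way. The ratio of Actl6b to Actl6a differed from ESC by -0.54 in EpiSC-like cells and by -0.24 at day 7, where it overlapped ESC. The ratio of Dpf1 to Phf10, the progenitor form at that position, differed by -0.31 and -0.68, below ESC on all 4 arrays. The ratios of Dpf3 to Dpf2 and of Ss18l1 to Ss18 overlapped between the groups in all 3 comparisons. With 2 arrays against 2 an exact permutation test cannot go below a two-sided p of 0.333, so these ratios are descriptions.

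**Figure D4:**
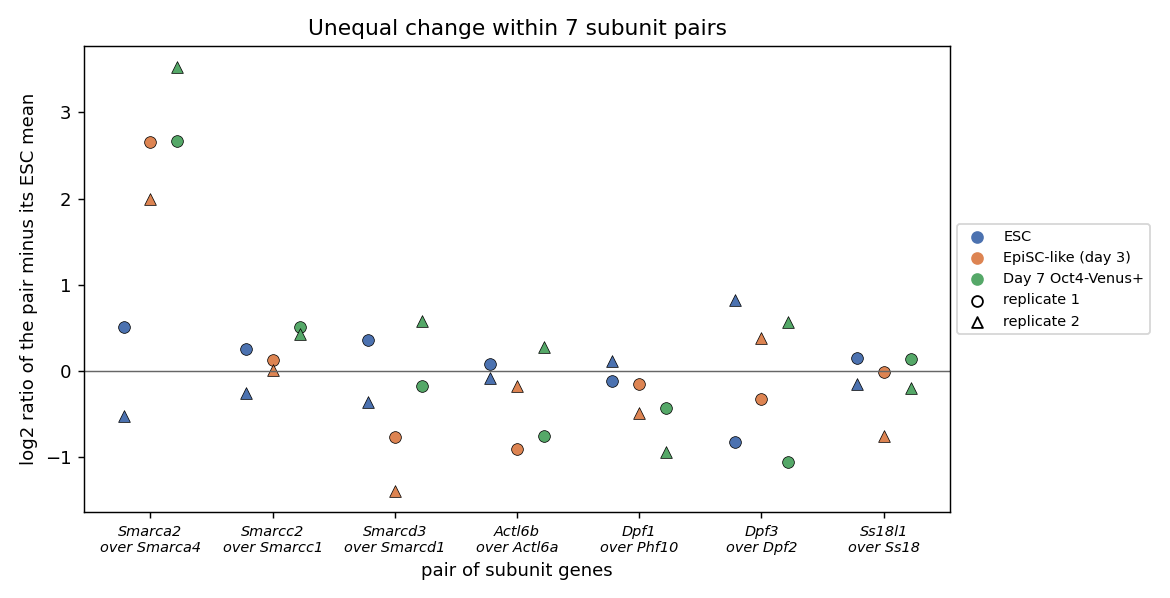
Log2 ratio of the signals of 7 subunit pairs on each array, set to 0 at the mean of the ESC arrays, by group (colour) and replicate number (shape). The ratio of Smarca2 to Smarca4 lies above ESC on all 4 later arrays, by 2.33 in EpiSC-like cells and 3.10 at day 7 on average, and the ratios of Actl6b, Dpf3 and Ss18l1 to their partners overlap ESC at day 7.

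Among the other 21 subunits of the BAF and related PBAF complexes, all of which were measured, 1 was called, Bcl11a. In EpiSC-like cells against ESC 1.90% of all genes were called in either direction, 1.31% higher. There Bcl11a, a zinc finger protein that is part of BAF complexes in neural and blood cells, rose. It read 71.1 and 35.3 in ESC, 403 and 404 in EpiSC-like cells, and 141 and 130 at day 7. The groups did not overlap, with EpiSC-like cells highest. The log2 difference was 2.65 ± 0.30 for EpiSC-like cells against ESC (limma adjusted p = 0.0213). Day 7 differed from ESC by 1.18 ± 0.30 and from EpiSC-like cells by -1.47 ± 0.30 (limma adjusted p = 0.119 and 0.120). All 7 of its 7 probe sets were higher in EpiSC-like cells than in ESC on average, and all 7 were lower at day 7 than in EpiSC-like cells. The call was lost with the array number as a block (adjusted p = 0.0510) and without ESC replicate 2 (0.114), EpiSC-like replicate 1 (0.0971), EpiSC-like replicate 2 (0.139) or either day 7 array (0.0574 each), as well as with a pseudocount of 1 (0.0857) or the arrays of the compared groups alone (0.0574), and it stayed without ESC replicate 1 (limma adjusted p = 0.0469).

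Of the 21, 0 were called by limma at day 7 against ESC and 0 at day 7 against EpiSC-like cells, with 3 and 1 at an unadjusted p under 0.05 (18.3% and 14.1% of all genes). For EpiSC-like cells against ESC 4 of the 21 had such a p (2904 of all 18193 genes). The DNA-binding subunit genes Arid2, of the PBAF form, and Arid1b leaned the same way without passing. Arid2 stood at 1.12 ± 0.24 in EpiSC-like cells against ESC and Arid1b at 1.23 ± 0.36 at day 7 against ESC (limma adjusted p = 0.0817 and 0.155). Bicral, of the form without Arid subunits, stood at -1.20 ± 0.37 in EpiSC-like cells against ESC (limma adjusted p = 0.181). The core subunits Smarcb1 and Smarce1 stood at 0.08 ± 0.30 and 0.18 ± 0.33 in the same comparison, and Ss18l1, the neuronal form of Ss18, at -0.35 ± 0.28 (limma adjusted p = 0.938, 0.864 and 0.631). The median difference of the list from ESC was 0.20 in EpiSC-like cells and 0.13 at day 7, and day 7 differed from EpiSC-like cells by a median of -0.13.

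**Figure D5:**
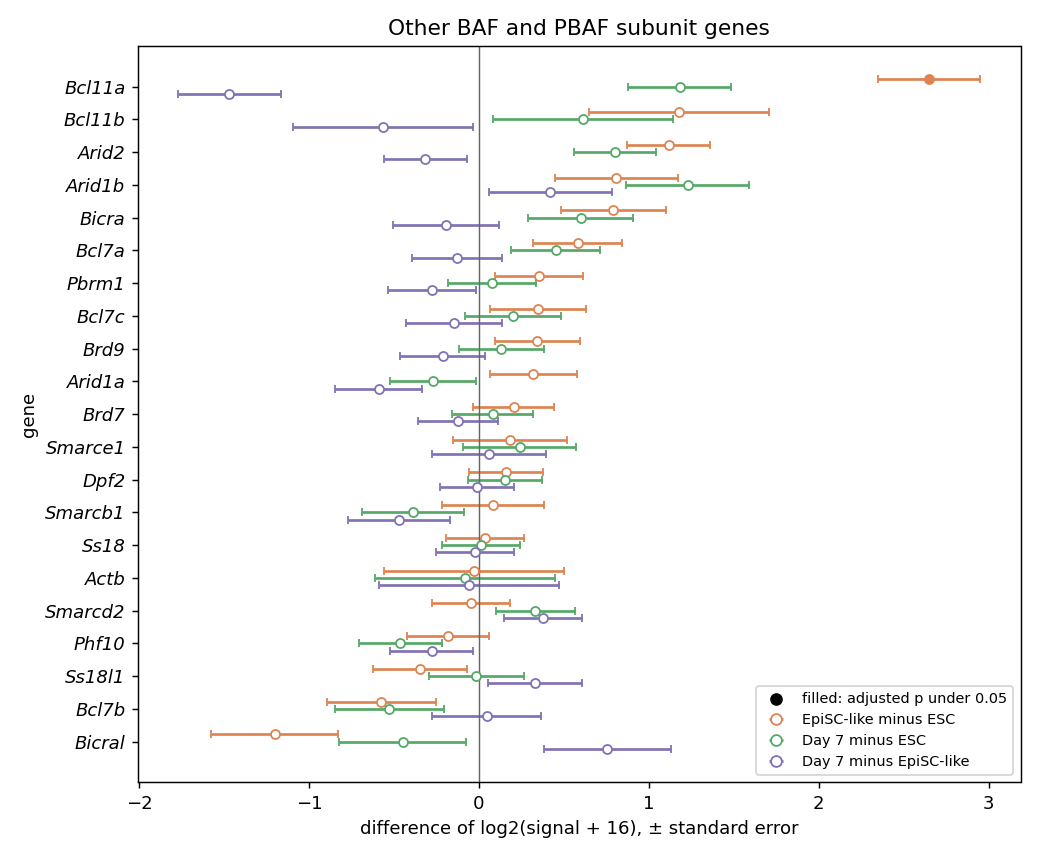
Differences of log2(signal + 16) with the standard error of the limma fit for 21 further BAF and PBAF subunit genes, ordered by EpiSC-like cells against ESC. The filled point, with an adjusted p under 0.05, is Bcl11a at 2.65.

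Other remodellers gave a comparison. Of 37 genes of the ISWI, CHD and INO80 families, a list that also holds Actl6a, limma called 0 in each of the 3 comparisons, with 2, 3 and 4 at an unadjusted p under 0.05, and medians of 0.01, 0.06 and -0.08. Of 10 genes of the REST repressor and its partners, which hold neuronal genes silent outside neurons, limma called 0 in each comparison, with 0, 3 and 0 at an unadjusted p under 0.05. Their medians were 0.21, 0.30 and 0.11. Rest itself stood at -0.49 ± 0.24 in EpiSC-like cells against ESC and -0.58 ± 0.24 at day 7 against ESC (limma adjusted p = 0.399 and 0.275).

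The neuronal subunits can be set beside markers of the cell types. The shares of all genes given above apply to the list counts below. Of 15 neuron genes 0 rose and 1 fell against ESC in each later group, Stmn2, with log2 differences of -3.02 in EpiSC-like cells and -2.45 at day 7. Their summed signal was 4475 to 6368 in EpiSC-like cells and 5031 to 9866 at day 7, against 12419 to 15980 in ESC, a sum in which Stmn2 weighed most. Without Stmn2 the sum was 4896 and 3359 in EpiSC-like cells and 3573 and 7360 at day 7, against 4102 and 2616 in ESC. At day 7 against ESC 12 of the 15 genes had a difference above 0, with a median of 0.57. Dcx, a marker of young neurons, read 2.57 and 33.4 in ESC, 16.9 and 19.6 in EpiSC-like cells, and 78.3 and 604 at day 7, so that day 7 replicate 2 stood far above all others. Most genes of the list were highest on that array, among them Map2 and Nefm, of the neuronal cytoskeleton, at 850 and 1125. Of the same list, only Neurod1 and Syn1 were lowest on that array, at 231 and 4.27. Actl6b read 27.7 there, next to 27.3 on the higher ESC array.

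Of 12 neural progenitor genes 4 rose in EpiSC-like cells against ESC (Sox1, Sox3, Fabp7 and Prom1). At day 7 against ESC 3 rose (Sox1, Fabp7 and Pax3), and these are the comparisons in which Smarca2 rose. Of all genes 1.31% and 0.753% were called higher in them. Of the 12 progenitor genes 9 had a difference above 0 in each of these comparisons, with medians of 0.76 and 0.72. Their summed signal was 25507 to 28287 in EpiSC-like cells and 26940 to 33227 at day 7, against 30839 to 31221 in ESC. In ESC Sox1, Fabp7, Hes5 and Pax3 read under 50 on both arrays. Of 12 primitive and visceral endoderm genes 0 were called by limma at day 7 against ESC, where 1.04% of all genes were called. Of these 12 genes 8 had an unadjusted p under 0.05, as had 18.3% of all genes. Summed, they read 3009 to 11913 at day 7 and 984 to 1144 in EpiSC-like cells, against 1133.5 to 1326 in ESC. The highest Smarca2 reading, 201, was on day 7 replicate 2.

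Of 9 fibroblast genes 1 rose in EpiSC-like cells (Col1a2) and 0 were called at day 7 against ESC, with 0 at an unadjusted p under 0.05 there. Their sum was 4108 to 6501 in EpiSC-like cells and 5333 to 6598 at day 7, against 7598 to 11001 in ESC. Of 11 measured mesoderm and muscle genes limma called 0 in each later group against ESC, with 2 and 3 at an unadjusted p under 0.05, and sums of 1243 to 1309.6 in EpiSC-like cells and 1294 to 1376 at day 7, against 942 to 1056 in ESC. The part of other cell types in the Smarca2 result was not tested. The actin 3′ to 5′ log2 difference, a measure of RNA integrity, was 0.71 and 0.94 at day 7, 0.46 and 0.58 in EpiSC-like cells and 0.51 and 0.53 in ESC, and its part in the day 7 values was not tested.

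The genes whose pattern over the 6 arrays was most like that of Smarca2, among 9888 genes whose highest group mean reached the median gene's level, were Tgfbr3 (Pearson r = 0.998), a coreceptor for TGF-beta, Prickle2 (0.998), of the planar cell polarity pathway, and Celf2 (0.995), an RNA-binding splicing regulator. Tgfbr3 read 51.8 and 23.6 in ESC, 298 and 162 in EpiSC-like cells, and 258 and 421 at day 7. The nearest to Actl6a were Chmp1b (0.991), Vps52 (0.988) and Uba3 (0.977), and the nearest to the dim Actl6b were Ubxn11 (0.964), Slc26a2 (0.963) and Las1l (0.961). With 6 arrays that share 3 groups and 2 replicate numbers, and so many genes to choose from, such values are descriptions of these arrays.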

How the data were processed

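Each of the 6 Affymetrix arrays was deposited as 1 signal intensity per probe set, on a linear scale. Affymetrix Expression Console (version 1) is named, without its role, per the submitters' processing notes; the algorithm and the genome build are not given in the sources used here. The deposited intensities had a trimmed mean (2% trimmed from either end) of 500.0031 to 500.0038 on the 6 arrays. Detection calls were not used here, and the number of arrays limits the precision.

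Of 45101 probe sets 64 controls were left out and 34945 had 1 gene in the platform annotation. Their symbols were compared by gene identifier with RefSeq (34741 matched, 0 changed). Each of the 18193 genes was read from its probe set with the highest mean log2(signal + 16). A model with a mean for each of the 3 groups, without a block, was fitted over all 6 arrays in limma 3.58.1 (R 4.3.3), which left 3 residual degrees of freedom. A gene was called where the adjusted p (Benjamini-Hochberg, all genes) was under 0.05. Errors are standard errors of that fit. The script was tested on simulated data.

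The members and lists were chosen with earlier results of these data known. The genes named were the 10 members, called genes of each list, any other BAF subunit as a value, and for the called member, Actl6a and Actl6b the 3 genes of highest Pearson r. Smarcb1, Smarce1, Arid1b, Arid2, Bicral, Ss18l1, Rest, Dcx, Map2, Nefm, Neurod1 and Syn1 are given as values. They were picked for their role or size after values were seen. The alternatives concerned the pseudocount, dim genes, scaling, probe sets, moderation, arrays used and the replicate number.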

Additional observations from a re-analysis of the deposited data

How the results depend on the processing

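The calls of this design are sensitive to the settings. In 3 comparisons (EpiSC-like cells with ESC, day 7 with ESC, day 7 with EpiSC-like cells, in this order) limma called 345, 189 and 7 genes. The numbers were 672, 679 and 206 with a pseudocount of 64, 0, 0 and 0 with a pseudocount of 1, 672, 567 and 144 without genes under the 25th percentile of mean signal, 734, 843 and 315 without genes under its median, 794, 791 and 199 with an intensity trend, 85, 0 and 0 with every probe set tested on its own, and 41, 0 and 0 with only the arrays of the groups compared. Quantile normalization gave 0 for day 7 against EpiSC-like cells. Without 1 array the numbers ranged from 0 to 63, from 0 to 10 and from 0 to 0. With the replicate number as a replicate block 0, 0 and 0 genes passed in limma, with 3369, 3920 and 3055 at an unadjusted p under 0.05, against 2904, 3331 and 2564 without it. Deviations of arrays with the same number correlated across genes with r = 0.28, 0.08 and 0.10 in the 3 pairs of groups (ESC with EpiSC-like, ESC with day 7, EpiSC-like with day 7), and the labels do not say what the number marks.

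Of the members 1, 1 and 0 were called. In the first comparison the number was 0 with the replicate block, a pseudocount of 1, a filter at the median signal (which leaves Smarca2 out), median centring, quantile normalization, every probe set tested on its own, the mean of all probe sets or only the arrays compared, and 2 with a pseudocount of 64 or the 25th percentile filter. At day 7 against ESC it was 0 with the replicate block, a pseudocount of 1, quantile normalization, every probe set on its own, the mean of all probe sets or only the arrays compared, and 2 with a pseudocount of 64 or the 25th percentile filter. Without 1 array it ranged from 0 to 0 in each comparison.

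Over 17 alternatives and 30 member differences, 440 values kept direction and side of the threshold, 25 kept direction and lost the call, 5 gained a call, and 25 changed sign, all 25 from differences that were not called. In this tally the block, the signal filters, the intensity trend, tests of every probe set and the compared arrays alone could not change direction. Neither could leaving out an array of the group not compared. These settings repeat the main difference and alter only its p-value. With the mean of all probe sets Smarcc1 stood at -0.07 in EpiSC-like cells and 0.15 at day 7, both against ESC. Between day 7 and EpiSC-like cells Smarcc1 stood at 0.22. In the same setting Actl6a stood at 0.11 for day 7 against ESC. Dpf3 stood at 0.22 at day 7 against ESC and 0.11 against EpiSC-like cells. Averaging gives dim probe sets the same weight as bright ones. Smarca4 stood at 0.05 for EpiSC-like cells against ESC with quantile normalization. Smarcc2 stood at -0.21 and -0.22 for day 7 against ESC with median centring and quantile normalization. Actl6a stood at -0.02 for day 7 against EpiSC-like cells with median centring. The cause of these sign changes was not tested. Without 1 array, signs turned for Smarca4 (-0.10 to 0.06), Smarcd1 (-0.74 to 0.22) and Dpf3 (-0.69 to 1.07) for EpiSC-like cells against ESC. They turned for Smarcc2 (-0.18 to 0.21), Actl6b (-0.98 to 0.20) and Dpf3 (-0.97 to 0.79) at day 7 against ESC. Between day 7 and EpiSC-like cells they turned for Actl6a (-0.04 to 0.22), Actl6b (-0.20 to 0.97) and Dpf3 (-1.14 to 0.58). The change in the ratio of Smarca2 to Smarca4 stayed above 0 in all 16 alternatives that could be computed. It was 1.24 to 3.81 for EpiSC-like cells and 1.87 to 4.65 for day 7, both against ESC. The settings named above that repeat the main differences also repeat this ratio, so it could change only in the others. The number of arrays limits the precision, and detection calls were not used here.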
